A study of Saccharomyces cerevisiae with 4 samples.

Results

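The RNAs described here are the 9 box H/ACA small nucleolar RNAs (snoRNAs) of budding yeast that guide pseudouridylation in the 3′ part of 25S rRNA: SNR34, SNR46, SNR10, SNR37, SNR42, SNR189, SNR11, SNR9 and SNR82. The rule that defines them is to have at least 1 target uridine in 25S from U2340 on, which uses no measured value, but the group was proposed with earlier results of these data known. They are 9 of the 77 RNAs in the deposited snoRNA tables and 9 of the 29 H/ACA snoRNAs listed there. The cross-linking data came from PAR-CRAC, in which a tagged protein is purified together with the RNA fragments photo-cross-linked to it and these fragments are sequenced. The tested strain, Dbp7-HTP, was BY4741 expressing the RNA helicase Dbp7 with a C-terminal His-Tev-ProtA tag, and the control strain, WT, was BY4741 with no tagged protein, so that its reads show what the purification recovers without a bait. Cells of both strains were grown with 4-thiouracil and irradiated with light at 365 nm. There were 2 libraries of each strain, from experiments that the study calls independent. The growth text in the labels names tagged helicases other than Dbp7 and gives no detail that belongs to Dbp7-HTP alone.

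Total mapped reads were 1214217 and 730583 in Dbp7-HTP replicates 1 and 2, and 159127 and 467529 in WT replicates 1 and 2, where the totals of both first replicates are estimates from their rRNA coverage. rRNA made up 69.0% and 66.5% of the reads assigned to an RNA class with Dbp7-HTP, and 36.0% and 30.6% in WT. The snoRNA tables covered replicate 2 of either strain only, so every snoRNA ratio below compares 1 library with 1 library, with no replicate check and no test. Read coverage and T-to-C substitutions along the 35S pre-rRNA were used for all 4 libraries.

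H/ACA snoRNAs fold into hairpins whose internal loops pair with the substrate on both sides of a uridine, which the bound pseudouridine synthase Cbf5 isomerises to pseudouridine. Each hairpin can hold its own target, so a single snoRNA may serve several sites. The 3′ part of 25S rRNA includes the peptidyl transferase region of domain V, where peptide bonds are made and where rRNA modifications cluster. RNA helicases such as Dbp7 act on pre-ribosomes while guide snoRNAs pair with the pre-rRNA.

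The sites to which the coverage values below refer are shown first, because neighbouring targets share reads and base context. Each line gives a target and its guide, then 21 nt of the deposited 25S sequence from 5′ to 3′ with the target uridine, written as T, in capitals.
U2340, guided by SNR9: ccactgtcccTatctactatc
U2349, guided by SNR82: ctatctactaTctagcgaaac
U2351, guided by SNR82: atctactatcTagcgaaacca
U2416, guided by SNR11: cctgttgagcTtgactctagt
U2735, guided by SNR189: tcagtgtgaaTacaaaccatg
U2826, guided by SNR34: gataactggcTtgtggcagtc
U2865, guided by SNR46: tgctttttgaTtcttcgatgt
U2880, guided by SNR34: cgatgtcggcTcttcctatca
U2923, guided by SNR10: cgttggattgTtcacccacta
U2944, guided by SNR37: atagggaacgTgagctgggtt
U2975, guided by SNR42: tgagacaggtTagttttaccc

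All 11 positions are uridines in the deposited sequence. SNR34 and SNR82 each have 2 targets in this stretch, and the windows of U2340, U2349 and U2351 overlap, as do those of U2865 and U2880. The 21-nt windows held 5 to 12 uridines with a median of 7, against a median of 6 around all uridines of 25S, so each target had several other uridines close by. The base before the target was C at 5 sites, A at 3, G at 2 and T at 1, and the base after it was A at 4, T at 4, C at 2 and G at 1. Outside the 3′ stretch, SNR82 also guides U1110 of 25S and SNR189 also guides U466 of 18S rRNA.

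Which of these guides were recovered with Dbp7 more than with the untagged control was read from the snoRNA tables. SNR34, SNR82 and SNR42 stood at more than 2 times their WT level, SNR10 and SNR37 stood above WT by less than that, SNR46, SNR11 and SNR189 could not be told from WT by counting error, and SNR9 stood below WT, with all ratios per total mapped reads. The 9 guides thus did not move as 1 group. The values are reads per 1000000 mapped reads (RPM), the ratios were formed from the whole reads behind them, and the 95% intervals are exact Clopper-Pearson intervals that cover counting error only.

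SNR34, the guide of U2826 and U2880, had 73 reads (99 RPM) in Dbp7-HTP replicate 2, against 12 reads (25 RPM) in WT replicate 2. Its RPM ratio of 3.89 (2.10 to 7.88) was the highest of the 9 and ranked 4 among the 75 listed RNAs with at least 10 reads in both libraries together. SNR82, the guide with 3 targets in 25S, reached 140 reads (191 RPM) with Dbp7-HTP while WT gave 25 reads (53 RPM), and its ratio was 3.58 (2.33 to 5.73). These guides held ranks next to each other and their intervals overlapped over most of their length. SNR42, the guide of U2975, gave 61 reads (83 RPM) with Dbp7-HTP and 15 reads (32 RPM) in WT, for a ratio of 2.60 (1.46 to 4.93).

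SNR10, which guides U2923 in the A-loop and is also known for its part in early pre-rRNA processing, had the most reads of the 9 in both libraries. It had 239 reads (327 RPM) with Dbp7-HTP and 80 reads (171 RPM) in WT, a ratio of 1.91 (1.48 to 2.49). SNR37, the guide of U2944, had the next most reads, at 154 (210 RPM) with Dbp7-HTP and 58 (124 RPM) in WT, and a ratio of 1.70 (1.25 to 2.34). Both intervals lay above 1 and were narrower than that of SNR42, whose ratio was larger. SNR10 was also the RNA just under a ratio of 2 among all 75, and the RNA just above it was SNR31, an 18S guide outside the 9, at 2.2.

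SNR46, the guide of U2865, had 25 reads (34 RPM) with Dbp7-HTP and 14 reads (29 RPM) in WT, and its ratio of 1.14 (0.572 to 2.38) held 1. SNR11, the guide of U2416, had 57 reads (78 RPM) with Dbp7-HTP and 34 reads (72 RPM) in WT, a ratio of 1.07 (0.690 to 1.69). SNR189, which serves both subunits, was the least covered, with 10 reads (13 RPM) with Dbp7-HTP and 9 reads (19 RPM) in WT, and its ratio of 0.711 spanned 0.260 to 1.98. For these 3 guides a difference was not detectable at this depth with total mapped reads as the total. SNR9, the guide of U2340, was the guide whose interval lay below 1 with this total, with 21 reads (28 RPM) with Dbp7-HTP against 34 reads (72 RPM) in WT, a ratio of 0.395 (0.218 to 0.701).

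In the order of the ratios, SNR34, SNR82, SNR42, SNR10, SNR37, SNR46, SNR11, SNR189, SNR9, every guide had an interval that overlapped that of its neighbour, so only guides further apart were separated by counting error. The order of the levels was different. Per kilobase of RNA, with lengths of 187 to 386 nt from RefSeq (assembly R64), SNR10 led with 1335 RPM with Dbp7-HTP and 698 in WT. SNR82 had 715 RPM per kilobase with Dbp7-HTP and 200 in WT, and SNR37 had 546 with Dbp7-HTP and 321 in WT. SNR34 came next with Dbp7-HTP, at 492 RPM per kilobase, against 126 in WT, and SNR189 stood lowest with Dbp7-HTP, at 72.4 against 102 in WT. In WT the lowest level was that of SNR42, at 91.4 RPM per kilobase, against 238 with Dbp7-HTP.

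**Figure D1:**
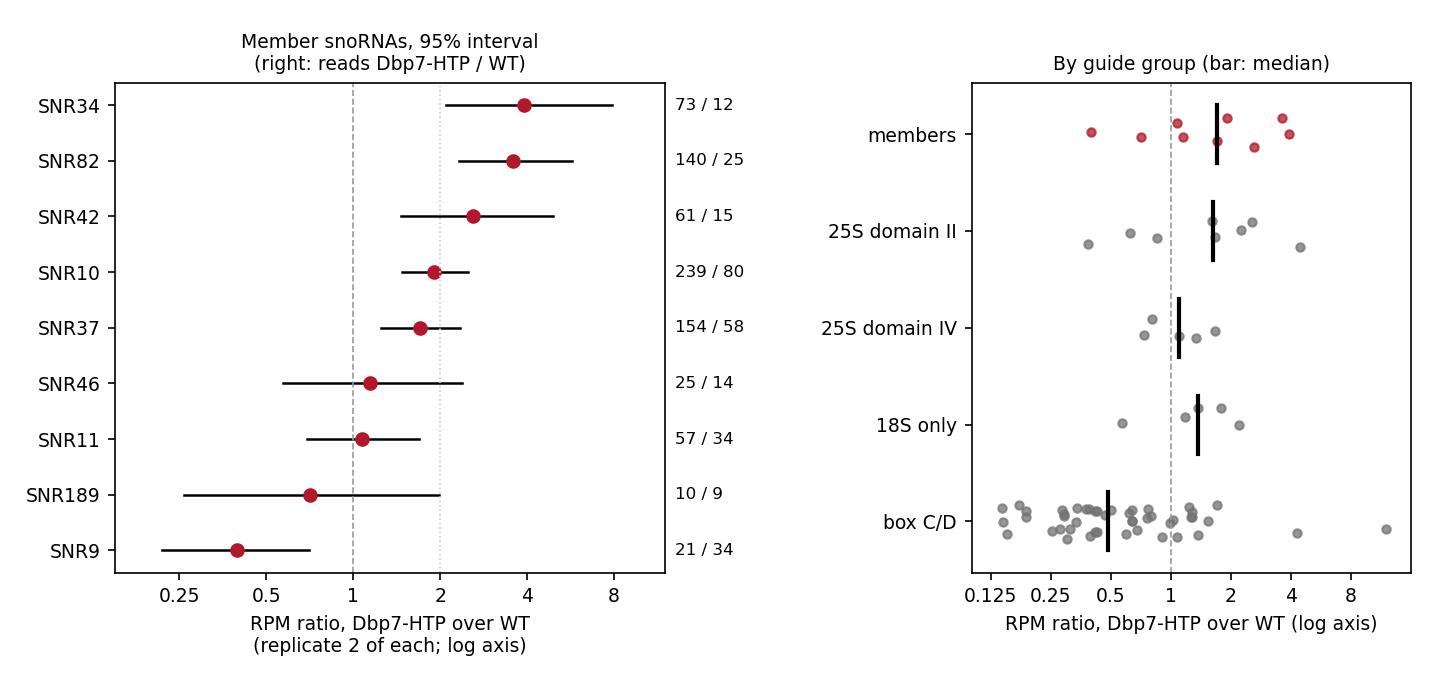
RPM ratio of Dbp7-HTP replicate 2 over WT replicate 2 on a log axis. Left, the 9 guides with exact 95% intervals for counting error and their reads at the right edge. Right, the listed RNAs with at least 10 reads, by guide group, with a black bar at each group's median. SNR30 and the RNase MRP RNA belong to none of these groups and are not drawn. SNR34, SNR82 and SNR42 lie above 2 and SNR9 lies below 1, and the median of the 9 guides is 1.70 against 0.481 for the box C/D snoRNAs.

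Of the 9 guides, 3 had a ratio above 2, where 12% of all 75 RNAs did. Intervals lay wholly above 1 for 5 of the 9, where 14.7% of all 75 did, and wholly below 1 for 1 of the 9, where 37.3% of all did. The median ratio of the 9 was 1.70, while it was 0.730 over all 75 and 0.659 over the 66 RNAs outside the 9. Much of that distance was between snoRNA classes, since the 46 box C/D snoRNAs, most of which guide 2′-O-methylation, had a median of 0.481, and the 19 H/ACA snoRNAs outside the 9 had a median of 1.33.

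Among the H/ACA snoRNAs themselves the distances were smaller. The 8 guides for domain II of 25S had a median ratio of 1.63 with 3 above 2, the 5 guides for domain IV had a median of 1.09 with none above 2, and the 5 guides for 18S alone had a median of 1.37 with 1 above 2. By ratio, H/ACA snoRNAs outside the 9 ran from 0.384 for SNR5 to 4.41 for SNR49, both of which guide domain II. The range of the 9 guides lay within this range. The listed RNAs outside the 9 that were nearest to SNR34 in log2 ratio were SNR73, a box C/D snoRNA, at 4.30 (2.90 to 6.60), then SNR49 at 4.41 (2.18 to 10.1) and SNR80 at 2.56 (0.511 to 24.7), which rested on 8 reads with Dbp7-HTP and 2 in WT.

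Summed over the 9 guides, Dbp7-HTP replicate 2 gave 780 reads, against 281 for WT replicate 2, a ratio of 1.78 (1.55 to 2.04), where the other H/ACA snoRNAs together had a ratio of 0.994 (0.885 to 1.12). That sum included SNR30, an RNA of pre-rRNA processing with no modification target, which gave 173 reads with Dbp7-HTP, against 153 in WT, and without it the ratio was 1.12 (0.978 to 1.29). The summed ratio was 1.16 for the domain II guides, 1.06 for the domain IV guides and 1.21 for the 18S guides. The 9 made up 51.4% of the listed H/ACA reads with Dbp7-HTP (95% Wilson interval 48.9 to 53.9%) and 37.2% in WT (33.8 to 40.7%). This summed ratio did not rest on the guide with the most reads, as it was 1.72 (1.46 to 2.04) without SNR10 and 1.73 (1.43 to 2.11) without SNR10 and SNR37. Within the 9, SNR82 supplied 17.9% of the reads with Dbp7-HTP (15.4 to 20.8%) and 8.90% in WT (6.10 to 12.8%), and SNR9 supplied 2.69% (1.77 to 4.08%) with Dbp7-HTP and 12.1% (8.79 to 16.4%) in WT. SNR10 kept about the same part, at 30.6% (27.5 to 34%) with Dbp7-HTP and 28.5% (23.5 to 34%) in WT.

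Of all listed snoRNA reads the 9 guides made up 8.94% (8.36 to 9.56%) with Dbp7-HTP and 6.54% (5.84 to 7.32%) in WT. SNR190, a box C/D snoRNA with 4425 reads with Dbp7-HTP and 236 in WT, weighs on that share, which without SNR190 was 18.1% (17 to 19.3%) with Dbp7-HTP and 6.92% (6.18 to 7.75%) in WT. The total to which reads are scaled sets the level of every ratio alike and leaves their order as it is. With the listed snoRNA reads as the total, 3 of the 9 guides were above 2, 5 were above 1 where 7 were with total mapped reads, and the median of the 9 was 1.31. Scaled to the reads outside rRNA, 7 of the 9 were above 2 and the median was 3.82, while 32 of all 75 RNAs were above 2. With that total the intervals of SNR46 (1.29 to 5.35) and SNR11 (1.55 to 3.81) lay above 1 and that of SNR9 (0.490 to 1.58) held 1. SNR9 also held 1 with listed snoRNA reads without SNR190 as the total (0.322 to 1.03), where SNR11 lay above 1 (1.02 to 2.50), and SNR37 held 1 with all listed snoRNA reads (0.960 to 1.80). The shares above and the order of the ratios do not change with this choice.

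How often the target uridines themselves were recovered was read from coverage along 25S rRNA. At all 11 targets both Dbp7-HTP libraries lay above both WT libraries. The same held at 7 of 10 sites of domain II guides and 7 of 8 sites of domain IV guides in 25S. Among the 18S targets of other guides it held at 0 of 13, and the reverse held at 10. The share of all uridines separated in this way was not counted, so the separation alone does not set the 11 targets apart. Over the 11 targets the mean log2 ratio ran from 1.88 at U2340 to 4.23 at U2416 with a median of 2.81, on the scale of log2(RPM + 1). The targets of SNR34, SNR46 and SNR10 were among the most covered, and the lowest ratios were at U2340 and U2349, targets of SNR9 and SNR82 at the 5′ edge of the stretch. Because the region as a whole was more covered with Dbp7-HTP, the targets are set beside all its uridines below.

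U2865, the target of SNR46, had the highest coverage of the 11 with Dbp7-HTP, with 20696 and 21309 RPM in Dbp7-HTP replicates 1 and 2, against 2438 and 2047 RPM in WT replicates 1 and 2. U2880, the distal target of SNR34, gave 17102 and 17533 RPM with Dbp7-HTP and 2495 and 1978 RPM in WT. In both strains these sites were the best covered of the 11. The libraries of a strain lay close together, but the estimated totals of the first replicates partly set that closeness. They lie 6 and 9 nt from the top of a coverage peak at nucleotide 2871, the second highest maximum of 25S in Dbp7-HTP replicate 1, and U2865 was at 86.1% and 64.3% of the 25S maximum of its library with Dbp7-HTP, and at 13.8% and 16.9% in WT. The log2 ratio was 3.23 (SE 0.43) at U2865 and 2.96 (SE 0.43) at U2880, with limma adjusted p = 0.0072 for both.

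U2826, the other target of SNR34, had 6962 and 6383 RPM with Dbp7-HTP and 1005 and 481 RPM in WT, a log2 ratio of 3.26 (SE 0.51, adjusted p = 0.0073). U2923, the A-loop target of SNR10, had 5418 and 5747 RPM with Dbp7-HTP and 798 and 402 RPM in WT, a log2 ratio of 3.30 (SE 0.50, adjusted p = 0.0073). At both sites the WT libraries lay further apart than the Dbp7-HTP libraries. U2944, the target of SNR37, had 4591 and 4151 RPM with Dbp7-HTP and 553 and 704 RPM in WT, a log2 ratio of 2.81 (SE 0.43, adjusted p = 0.0073). These sites lie 45, 52 and 73 nt from the top of the same peak.

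U2416, the target of SNR11, showed the widest distance between the strains, with 3368 and 3291 RPM with Dbp7-HTP and 132 and 237 RPM in WT. The log2 ratio was 4.23 (SE 0.48, adjusted p = 0.0061), and WT coverage was the lowest of the 11 in WT replicate 1, where it rested on 21 reads. Its guide SNR11 was one of those that could not be told from WT. Further 3′, U2735, the target of SNR189, had 2821 and 3217 RPM with Dbp7-HTP and 918 and 456 RPM in WT, a log2 ratio of 2.22 (SE 0.51, adjusted p = 0.021). U2975, the target of SNR42, had 2917 and 2758 RPM with Dbp7-HTP and 465 and 729 RPM in WT, a log2 ratio of 2.28 (SE 0.46, adjusted p = 0.014).

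The 3 targets at the 5′ edge had the lowest Dbp7-HTP coverage of the 11. U2340, the target of SNR9, had 1384 and 1194 RPM with Dbp7-HTP and 352 and 347 RPM in WT, a log2 ratio of 1.88 (SE 0.43, adjusted p = 0.021). U2349 and U2351, the adjoining targets of SNR82, largely share their reads. U2349 had 1039 and 898 RPM with Dbp7-HTP and 245 and 199 RPM in WT, a log2 ratio of 2.12 (SE 0.43, adjusted p = 0.015), and U2351 had 922 and 868 RPM with Dbp7-HTP and 201 and 169 RPM in WT, a log2 ratio of 2.27 (SE 0.43, adjusted p = 0.011). Among all uridines of 25S, U2351 stood at percentiles 45.3 and 50.2 of coverage with Dbp7-HTP and 23.8 and 20.9 in WT, whereas U2865 stood at 98.8 and 97.9 with Dbp7-HTP, against 94.2 and 97.0 in WT.

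**Figure D2:**
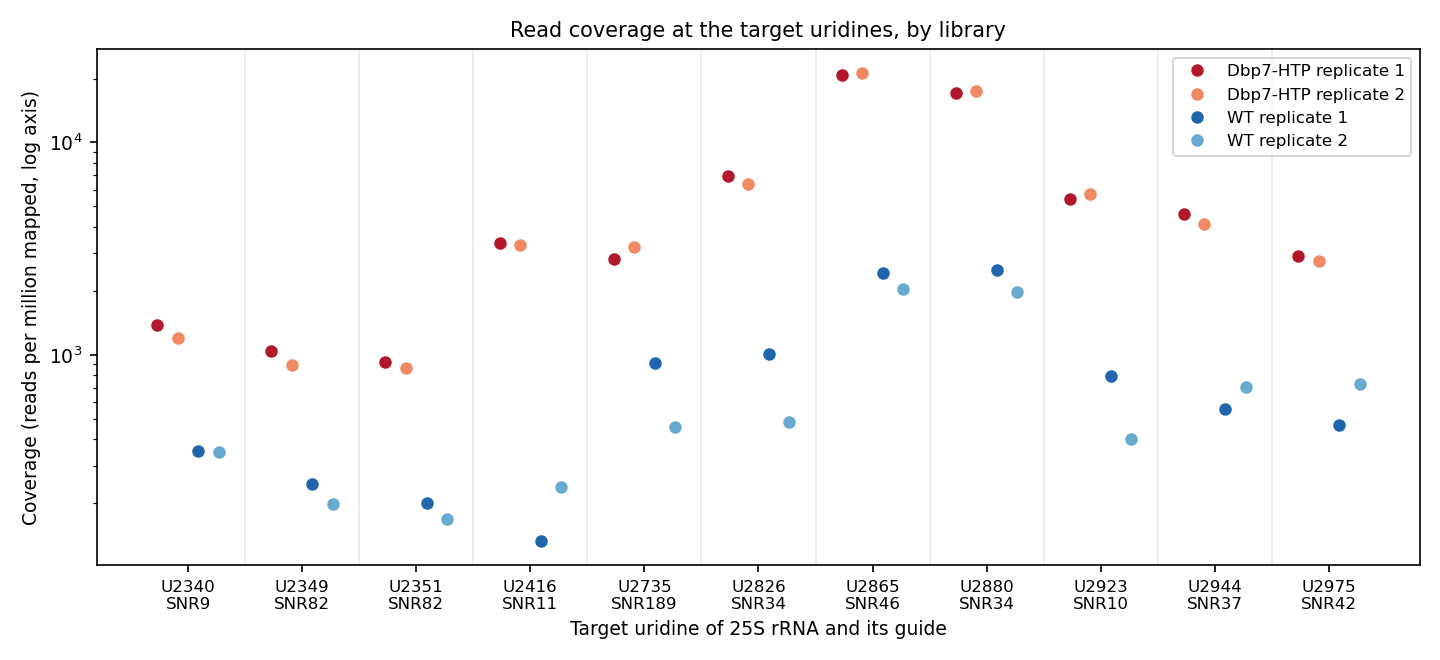
Read coverage in RPM on a log axis at the 11 target uridines, in order along 25S rRNA with the guide under each, 1 point per library. Both Dbp7-HTP points lie above both WT points at each target, with the widest gap at U2416 and the highest level at U2865. The same separation, not drawn, was found at 7 of 10 sites of domain II guides and 7 of 8 sites of domain IV guides in 25S. It was found at 0 of 13 18S targets of other guides.

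The fit with limma covered 1826 uridines of the 35S pre-rRNA, of which 15.6% were called higher with Dbp7-HTP. All 11 targets were called higher, but so were 61.8% of the 293 uridines of 25S from U2340 on, and 0 of those were called lower (0 at an unadjusted p under 0.05). The median log2 ratio over these 293 uridines was 2.31, that of the 11 targets was 2.81, and 6 of the 11 lay above that regional median. U2416 stood at percentile 96.2 of the regional log2 ratios, U2923 at 84.3, U2826 at 82.9 and U2865 at 81.9, whereas U2340 stood at 40.6 and U2349 at 46.4. A call at a target was thus shared with most uridines of the region. The smallest p that an exact permutation of 2 against 2 libraries can give is 0.33, so that test could not pass the threshold at a single site.

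Leaving out 1 library left a single library in 1 strain, so the spread in that fit came from the other strain's pair alone. Calls from such fits cannot be compared with those of the main fit, and only effect sizes are given. The median log2 ratio of the 11 targets was 2.73 and 2.88 without Dbp7-HTP replicates 1 and 2. It was 2.72 and 2.73 without WT replicates 1 and 2. Over the 293 uridines of the region the median was 2.27 and 2.32 without Dbp7-HTP replicates 1 and 2. It was 2.67 and 1.97 without WT replicates 1 and 2. When coverage was scaled to the 35S coverage of each library in place of total mapped reads, the median log2 ratio of all tested uridines moved by -0.84, that of the 11 targets was 1.97, and 8 of the 11 were called, where 50.5% of the 293 regional uridines were. U2340, U2735 and U2975 then had adjusted p values of 0.085, 0.053 and 0.056. Over all uridines, 51.3% of the calls were higher with Dbp7-HTP under the main scaling and 24.2% under the 35S scaling.

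The shape of coverage around a target differed from site to site. Around U2865 and U2880 the profiles of both strains rose and fell over the same nucleotides, and U2865 was at 95.1% and 96.4% of the local maximum within 60 nt with Dbp7-HTP and at 85.5% and 91.2% in WT. U2416 sat on the 3′ shoulder of a Dbp7-HTP block. At 40 nt before it the Dbp7-HTP libraries stood at 4900 and 4038 RPM, against 214 and 229 RPM in WT, and 20 nt after it they stood at 404 and 237 RPM, against 176 and 184 RPM in WT. The SNR82 site U2351 lay before the same block, with 4313 and 3514 RPM with Dbp7-HTP and 214 and 195 RPM in WT at 20 nt after it. At 40 nt before U2340, by contrast, the Dbp7-HTP libraries stood at 2447 and 2271 RPM, against 3287 and 973 RPM in WT, so that there the strains overlapped.

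**Figure D3:**
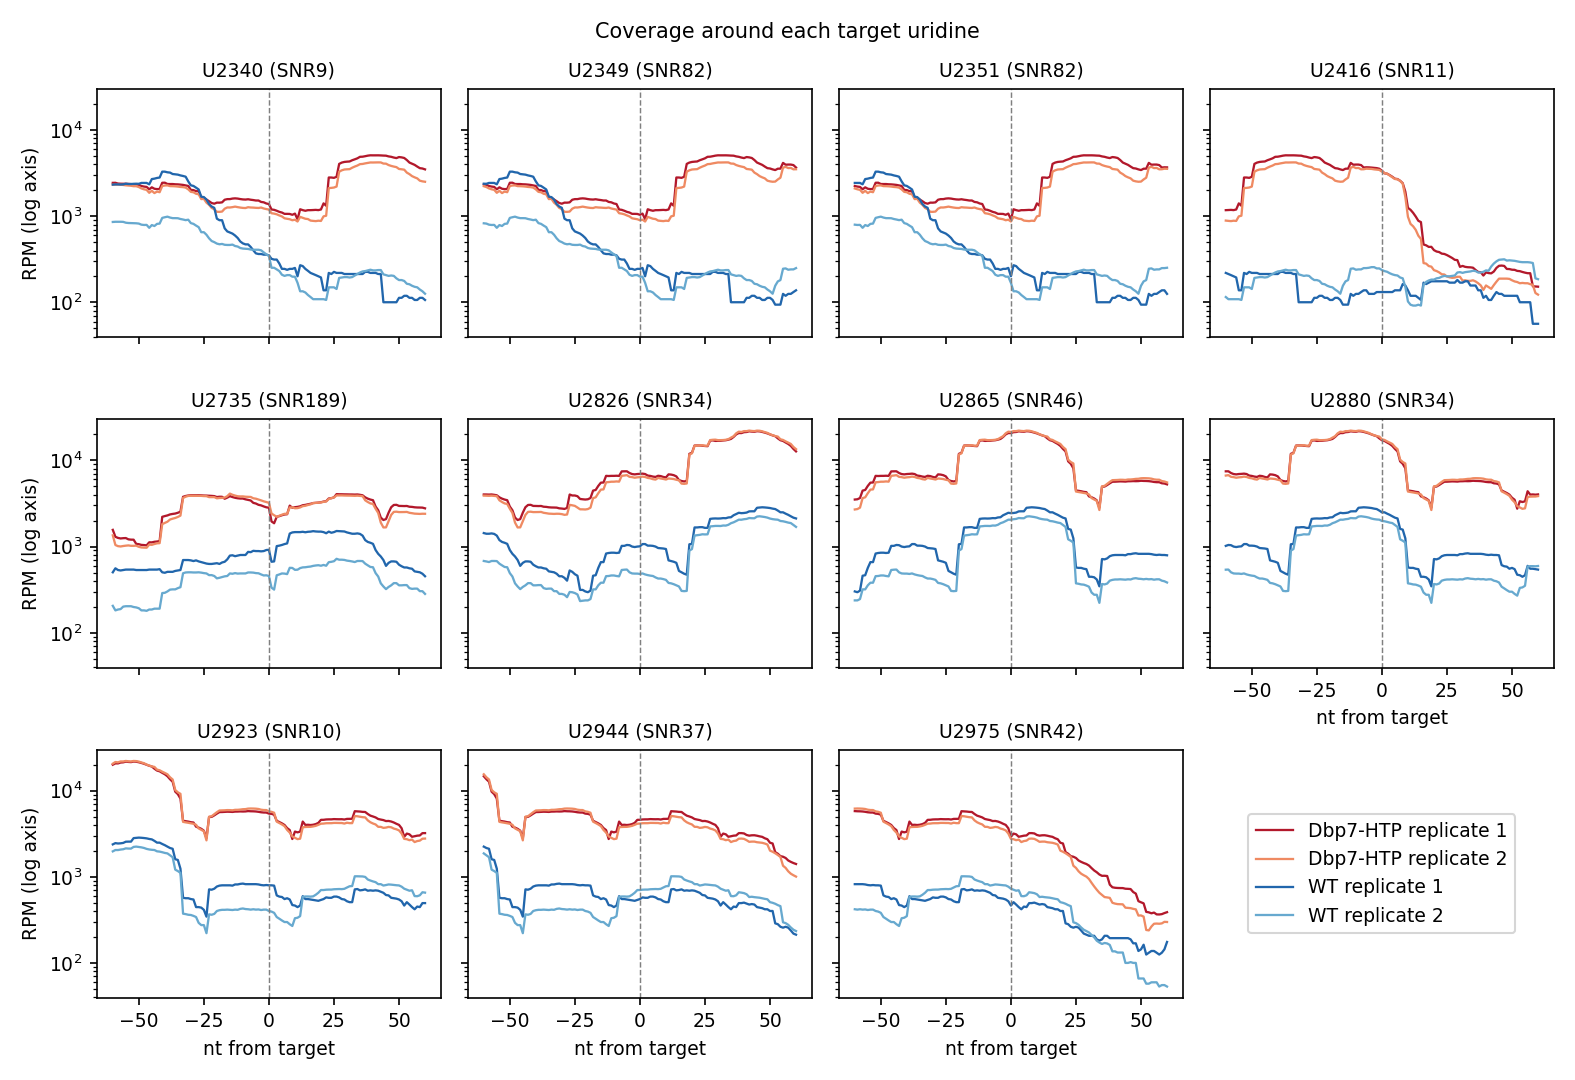
Coverage in RPM on a log axis from 60 nt before to 60 nt after each target, 1 line per library, with the target at the dashed line. The strains run nearly parallel around U2865 and U2880, and the Dbp7-HTP lines drop within 20 nt after U2416 to 404 and 237 RPM, against 176 and 184 RPM in WT.

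These guides also serve targets elsewhere, which were not tested against the 11. U1110 of 25S, the third target of SNR82, had 1492 and 987 RPM with Dbp7-HTP and 559 and 434 RPM in WT. Its log2 ratio of 1.30 (SE 0.46) did not pass the limma test (adjusted p = 0.073, and 0.43 under the 35S scaling). Both Dbp7-HTP libraries lay above both WT libraries there too. U466 of 18S, the other target of SNR189, had 664 and 743 RPM with Dbp7-HTP and 1866 and 1211 RPM in WT, a log2 ratio of -1.10 (SE 0.46, adjusted p = 0.112). Targets of H/ACA guides outside the 9 had a median log2 ratio of 0.54 over 10 sites of domain II guides, 1.06 over 8 sites of domain IV guides and -1.23 over 13 sites in 18S. Of these 31 sites, 0 were called higher by limma (4 at an unadjusted p under 0.05) and 3 were called lower. Of all 1826 tested uridines, 284 were called higher and 270 lower. These sites moved with the WT library used. The median over the 8 sites of domain IV guides was 1.32 without WT replicate 1 and 0.80 without WT replicate 2. Over the 10 sites of domain II guides it was 0.30 and 0.95. Under the 35S scaling U466 was called lower as well (adjusted p = 0.017). With that scaling 10 of the 31 sites were called lower, where 603 of all 1843 tested uridines were.

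Signs of cross-linking at the targets themselves were read from T-to-C substitutions, which 4-thiouridine leaves where it was joined to protein. The study kept only mapped reads that carried a specific T-to-C change. If the counts come from those reads, a share shows how substitutions were split among nearby uridines. It would then not be the frequency of cross-linking at a site. At U2826 6.97% and 8.51% of reads were substituted with Dbp7-HTP (95% Wilson intervals 6.44 to 7.53% and 7.75 to 9.35%), and 4.38% and 5.33% in WT (2.14 to 8.75% and 3.08 to 9.09%). At U2880, under the same guide, it was 0.968% and 1.04% with Dbp7-HTP, against 3.27% and 1.51% in WT, although coverage was higher there. U2865 had 11.8% and 11.2% with Dbp7-HTP, against 10.1% and 7.31% in WT. The U2826 and U2865 shares thus lay above WT in both libraries and the U2880 share lay below it, but in WT they rested on 7 to 70 substituted reads and the exact permutation test cannot go below p = 0.33.

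U2351 was the only other target over 10% with Dbp7-HTP, at 11.1% and 12.1%, against 6.25% and 13.9% in WT, and 2 nt before it U2349 had 1.35% and 3.51% with Dbp7-HTP, against 7.69% and 1.08% in WT. U2416, despite its coverage, had 0.44% and 0.374% with Dbp7-HTP, against 4.76% and 0% in WT. The WT values there stand for 1 read of 21 and 0 of 111, and the count of 0 allows a share of up to 2.70%. U2923 was lower with Dbp7-HTP, at 3.59% and 3.98%, against 6.30% and 12.8% in WT, and U2735 had 4.82% and 4.68% with Dbp7-HTP, against 8.90% and 5.16% in WT. The other sites, U2340, U2944 and U2975, were between 1.59% and 5.53% with Dbp7-HTP and between 1.35% and 6.82% in WT. The strains overlapped at 4 of the 11 sites, U2349, U2351, U2416 and U2944. Of the rest, U2340, U2826, U2865 and U2975 lay higher with Dbp7-HTP, and U2735, U2880 and U2923 lay lower. The share of all uridines that overlap in this way was not counted, so nothing is drawn from this count.

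The targets were not the most substituted uridines of their surroundings. Over the 11 targets the median share was 3.78% and 4.09% with Dbp7-HTP, against 6.25% and 3.09% in WT. Over uridines of 25S above a minimum of reads it was 7.72% and 8.09% with Dbp7-HTP, against 8.33% and 7.75% in WT. For those from U2340 on it was 6.33% and 6.59% with Dbp7-HTP, against 8.36% and 7.14% in WT. In each library and at each of the 11 targets, the uridine with the most substituted reads within 10 nt was another one. Near U2416 it lay 5 nt before the target, with 54.8% and 54.1% with Dbp7-HTP, against 30% and 35.6% in WT. Near U2826 it lay 8 nt before, with 40.8% and 43.1% with Dbp7-HTP, against 37.0% and 30.3% in WT. These high shares were found in both strains.

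**Figure D4:**
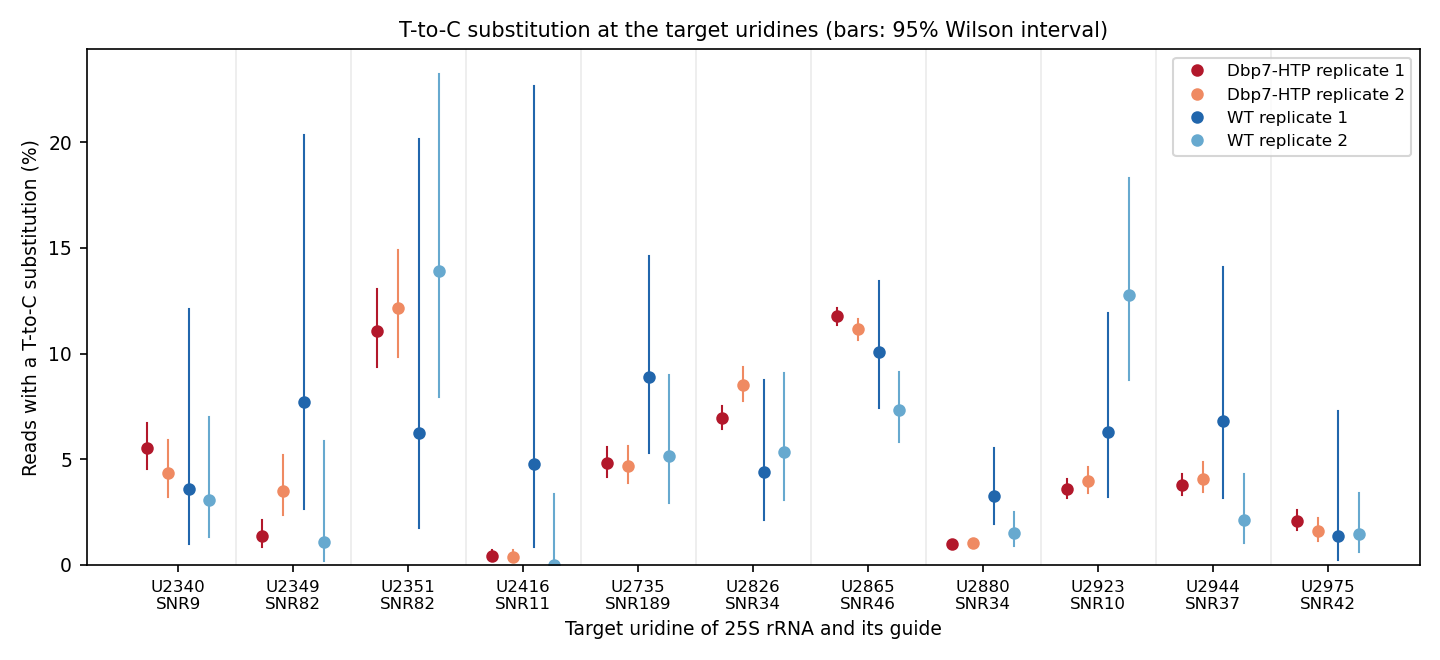
Share of reads with a T-to-C substitution at each target, 1 point per library, with 95% Wilson intervals for counting error. The WT intervals are wide because few reads cover the sites, and U2351 and U2865 are the targets above 10% in both Dbp7-HTP libraries.

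Recovery of a guide and coverage of its targets were finally set side by side. SNR34 had the highest log2 RPM ratio, 1.96, and a mean log2 coverage ratio of 3.11 over its 2 targets. That mean was below the target values of SNR11, SNR10 (3.30) and SNR46 (3.23). SNR11 had a log2 RPM ratio of 0.10 and the highest target log2 ratio, 4.23, and SNR82 had the second highest log2 RPM ratio, 1.84, and a target log2 ratio of 2.2. SNR9 was lowest on both, at -1.34 for the snoRNA and 1.88 for its target. Over the 9 guides Pearson's r was 0.15 and Spearman's rho 0.13, and against the distance of the nearest target from the coverage peak they were -0.32 and -0.40. These are descriptions over 9 points that share the same libraries, with a guide ratio that came from 1 library per strain.

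**Figure D5:**
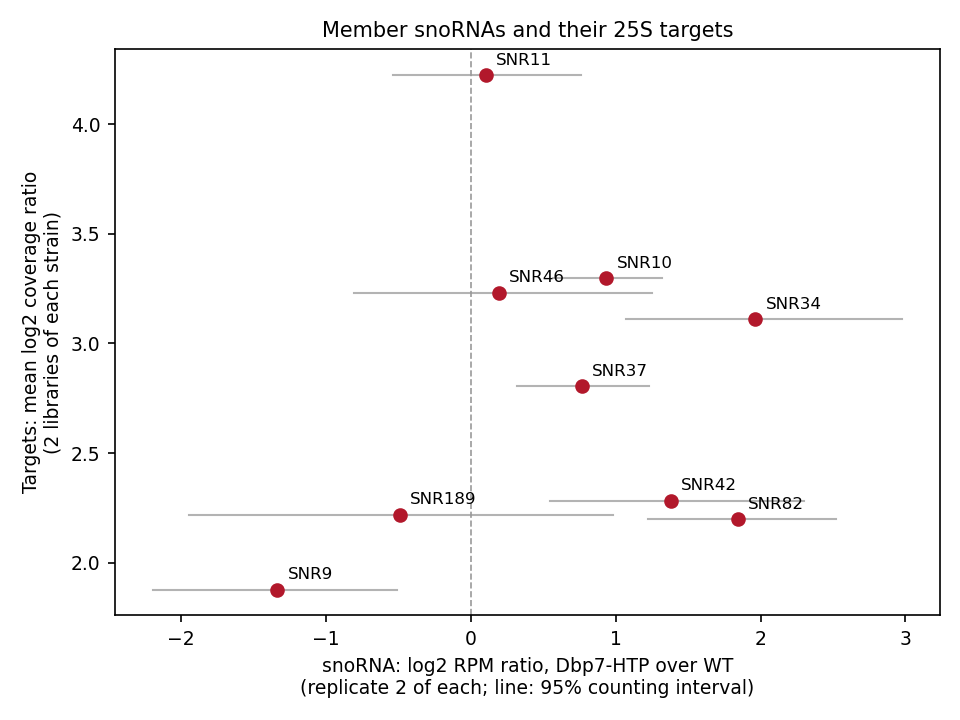
Log2 RPM ratio of each guide, Dbp7-HTP replicate 2 over WT replicate 2, with its 95% counting interval as a line, against the mean log2 coverage ratio of its targets in the 3′ part of 25S over 2 libraries of each strain. SNR34 is highest for the snoRNA, SNR11 is highest for its target at a snoRNA value of 0.10, and SNR9 is lowest on both.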

How the data were processed

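PAR-CRAC libraries of Dbp7-HTP and untagged BY4741 cells were used, 2 of each. The authors mapped reads to the S288C genome (Bowtie2 2.2.4 per the labels; the build is not given in the sources used here). After mapping, the study kept only reads with a specific T-to-C change. Whether the coverage, counts and totals used here hold only such reads was not established. The deposited 35S files hold signal, the coverage per nucleotide, and counts of substituted reads. The deposited RNA class and snoRNA values are scores, which are reads per 1000000 mapped reads (RPM) cut to whole numbers by the authors; with the total stated in the deposited files, 100% of the snoRNA values gave whole reads. Their last column has no label and served as an alternative only. Totals of the first replicates were estimated by applying the second replicate's coverage per rRNA read. Closeness of RPM levels within a strain, and the SEs that rest on it, are partly set by this step. Coverage was divided by total mapped reads.

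Ratios required 10 reads in the 2 libraries together. Coverage was tested with limma 3.58.1 (R 4.3.3) on log2(RPM + 1) at uridines averaging at least 10 RPM, with Benjamini-Hochberg adjustment at 0.05; the script was tested on simulated data. Intervals and limits cover counting error only, and PCR duplicates are not independent molecules. Target positions are those of the established yeast pseudouridine map, entered by name and each checked to be a uridine in the deposited sequence. All 9 guides and all their targets are named; other snoRNAs are named only as the highest or lowest of a group, as nearest to SNR34 in log2 ratio or to the 2-fold limit, or where a scaling or sum turns on them (SNR190 and SNR30, chosen after their values were seen). The guides, lists and tests were chosen with earlier results of these data known. Alternatives covered the scaling, minimum, pseudocount, windows, pairing and leaving out each library. The profile of SNR190 was not used beyond the total its header states.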

Additional observations from a re-analysis of the deposited data

How the results depend on the processing

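The count of guides with an RPM ratio above 2 was 3 with total mapped reads, 4 with the unlabelled last column of the tables, an alternative chosen after seeing the data, 7 with reads outside rRNA and 5 with the listed snoRNA reads without SNR190, where 9, 10, 32 and 19 of all 75 RNAs were above 2 under the same settings. The median ratio of the 9 guides, 1.70 with total mapped reads, was 1.31 with listed snoRNA reads, 1.32 with listed H/ACA reads, 3.82 with reads outside rRNA and 2.51 with listed snoRNA reads without SNR190. Across these settings, 34 of 45 values for single guides stayed within their main interval.

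All 11 targets were called higher with Dbp7-HTP under the main fit, where 61.8% of the 293 regional uridines were. Their median log2 ratio, 2.81, was 1.97 under 35S scaling and 2.72 to 2.88 with 1 library left out. Over single targets, all 88 values under the alternatives kept direction. The 35S scaling lost the calls at U2340, U2735 and U2975. With 50-nt windows 9 of the 11 targets lay in a called window, and the share of all windows called was not counted. Calls of the fits with 1 library left out are not given. The mean of 21 nt around each target, chosen for this count after seeing the data, gave 11 called targets. The replicate number as a block left 11 targets called. Under either of these settings 67.6% of the 293 regional uridines were called higher, so the calls were shared with most of the region. Same-numbered libraries deviated together only weakly (r = 0.13 over 1826 uridines, 2 pairs), which cannot show whether they belong to 1 experiment. The main fit left the numbers out and called 554 of all tested uridines, where the fit with the block called 703.

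Expressed as substituted reads per 1000000 mapped reads, Dbp7-HTP minus WT was 12.2 at U2349, 10.4 at U2416, 90.6 at U2735, 118 at U2880, 161 at U2923 and 145 at U2944, at sites where the difference in share was negative; this quantity follows coverage and is not a test of the share. Leaving out 1 library moved the difference in share across 0 at 4 sites. Without WT replicates 2 and 1, in that order, it was -5.27 and 1.35 points at U2349 and -4.35 and 0.41 at U2416. It was -2.88 and 1.81 at U2944 in the same order. At U2351 the order was reversed, with 5.36 without WT replicate 2 and -2.31 without WT replicate 1. The cause was not tested. The other H/ACA snoRNAs without SNR30, a sum added after seeing the data, had a ratio of 1.12. Precision is limited by the shallow WT libraries, by the estimated totals of the first replicates and by a single snoRNA table per strain.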
